A study of Mus musculus with 2 samples.

Results

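The 36 genes described here are imprinted genes of the mouse that lie outside the Dlk1-Dio3 locus and the insulin-like growth factor axis. They were found by name among 43346 mouse gene rows of the deposited tables, and each of the 36 had exactly 1 row. C57BL/6J embryos at embryonic day 14.5 gave the limb RNA, which was polyadenylated, longer than 200 nucleotides and sequenced with its strand kept. Both libraries were made from mixed-sex littermates, carry the same donor identifier and form the only group, so no conditions were compared. The labels do not name the limbs taken, nor do they say whether each pool was a separate litter. Spread and p-values therefore cover only these 2 libraries and may be partly technical.

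Genomic imprinting marks some genes by DNA methylation in the egg or the sperm, so that only the copy from the mother or from the father is used in the embryo. Imprinted genes sit in clusters around a control region, and many set the growth of the embryo and placenta: genes used from the father's copy often favour growth, and genes used from the mother's copy often restrain it. The embryos were of an inbred strain and the tables hold no allele information, so the parental origin given for each gene is background and was not measured. Some of the genes are imprinted only in the placenta or in neurons. In a bulk tissue, fewer expressing cells and less RNA per cell cannot be told apart.

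Gene rows summed to 110172148 counts in replicate 1 and 103363136 in replicate 2. All 10 limb marker genes were detected, led by Col2a1 of cartilage at 1496 ± 179, Krt14 of the epidermis at 219 ± 34.8, Myog of muscle at 134.5 ± 3.29 and the limb patterning gene Hoxd13 at 107 ± 22.4 TPM (SD, n = 2). TPM is a read count corrected for transcript length and for library size, and a gene was called detected at 1 TPM or more in both libraries. Of 10 trophoblast and placenta markers 4 were detected, and their summed TPM was 23.6 and 27.2 in replicates 1 and 2. Of 10 neuron markers 6 were detected, with summed TPM of 68.6 and 45.8. The liver list had 4 of 5 detected and summed TPM of 38.1 and 40.1.

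Nearly all of these 36 imprinted genes were transcribed in the limb. Of the 36 genes 35 were detected, against 33.8% of all gene rows and 62.8% of protein-coding genes. The exception was Usp29 at 0.80 and 0.55 TPM. Detected members had a median of 39.7 TPM, beside 18.3 TPM for all 14663 detected genes. The members were chosen with earlier results of these data known, so these values do not stand for imprinted genes at large. Of 34 other imprinted genes with a row 26 were detected, and the median of the 34 was 6.31 TPM. H19, Mest and Gnas exceeded 1000 TPM on average, 10 genes lay between 100 and 1000, 14 between 10 and 100, and 8 between 1 and 10. The 36 genes held 1.89% and 1.95% of the TPM in mouse gene rows of replicates 1 and 2. H19, Mest and Gnas alone made up 77.9% and 76.2% of the members' sum. In the order by mean TPM, 23 of 35 neighbouring pairs differed by less than the sum of their SDs, so the exact rank of most members is not fixed by these libraries.

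The 14 genes known for expression from the maternal copy had a median of 39.1 TPM and ran from 1.93 TPM for Ascl2 to 8521 TPM for H19. The 20 genes known for expression from the paternal copy had a median of 31.8 TPM and ran from 0.675 TPM for Usp29 to 3175 TPM for Mest. Both classes therefore covered almost the whole span of levels. Gnas and Blcap, whose imprinting depends on the transcript or the tissue, were counted in neither class. The maternal class still holds genes known for imprinting mainly in the placenta (Cd81, Tssc4, Nap1l4 and Ascl2) or in neurons (Ube3a). These names are examples and do not cover all such limits in either class. A place in the maternal or paternal class does not mean that a gene is imprinted in the limb.

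**Figure D1:**
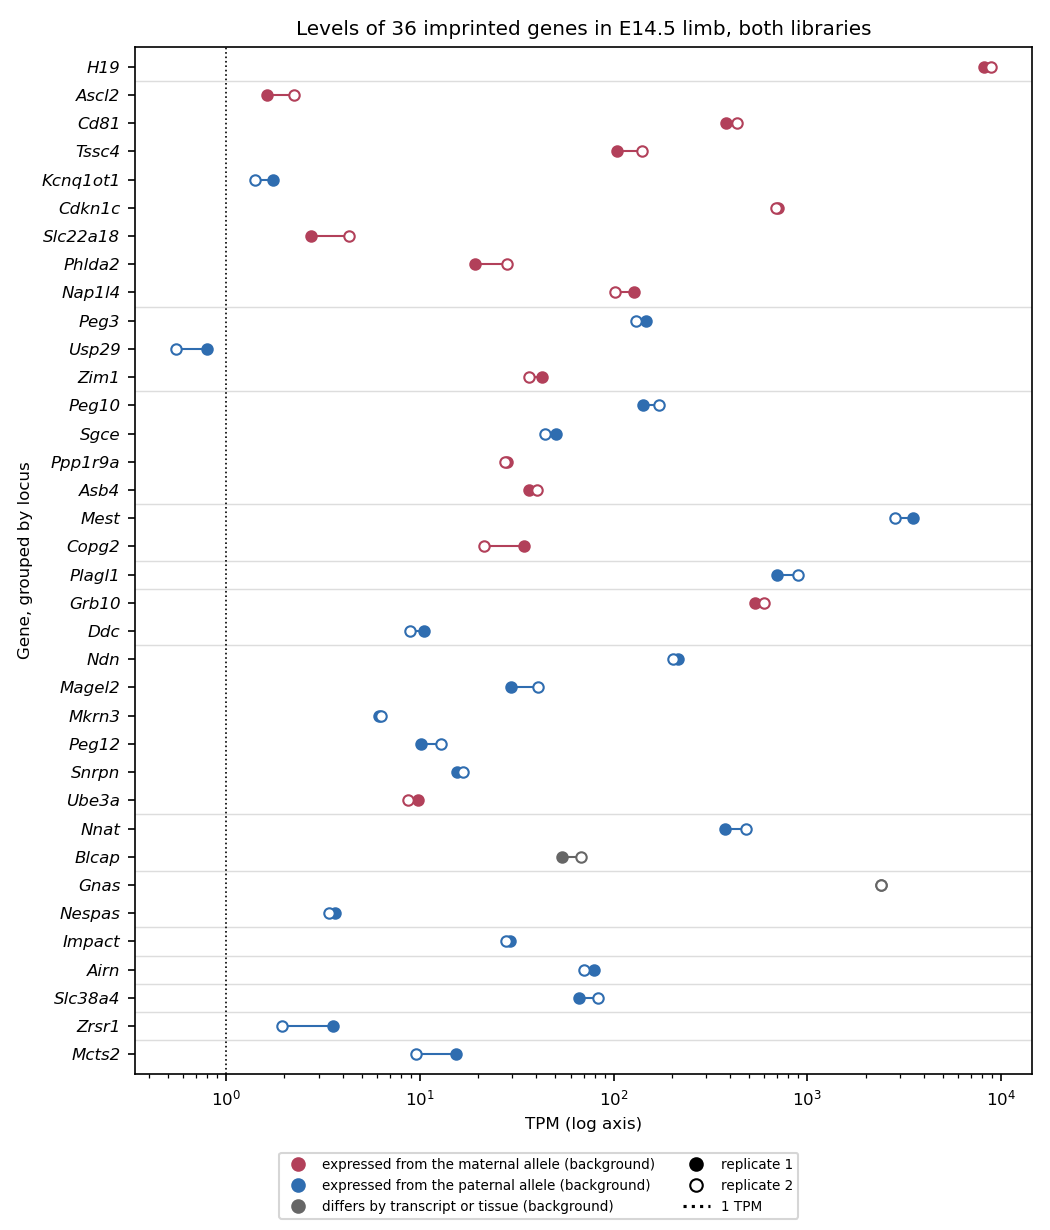
TPM of each of the 36 imprinted genes on a log axis, grouped by locus, with replicate 1 as filled and replicate 2 as open points. Colours give the parental copy known from background, and only Usp29 lies left of the dotted line at 1 TPM.

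Levels were compared between 24 pairs of genes, most of them neighbours in a locus, by limma on log2(TPM + 1). After Benjamini-Hochberg adjustment across the 24 pairs, 22 differed beyond the replicate spread, and each library taken alone gave the same direction for all 24. A fold given below for a pair is on the log2(TPM + 1) scale, which understates the fold of a gene near 1 TPM. Genes of a pair come from the same libraries, which the standard error does not take into account.

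**Figure D2:**
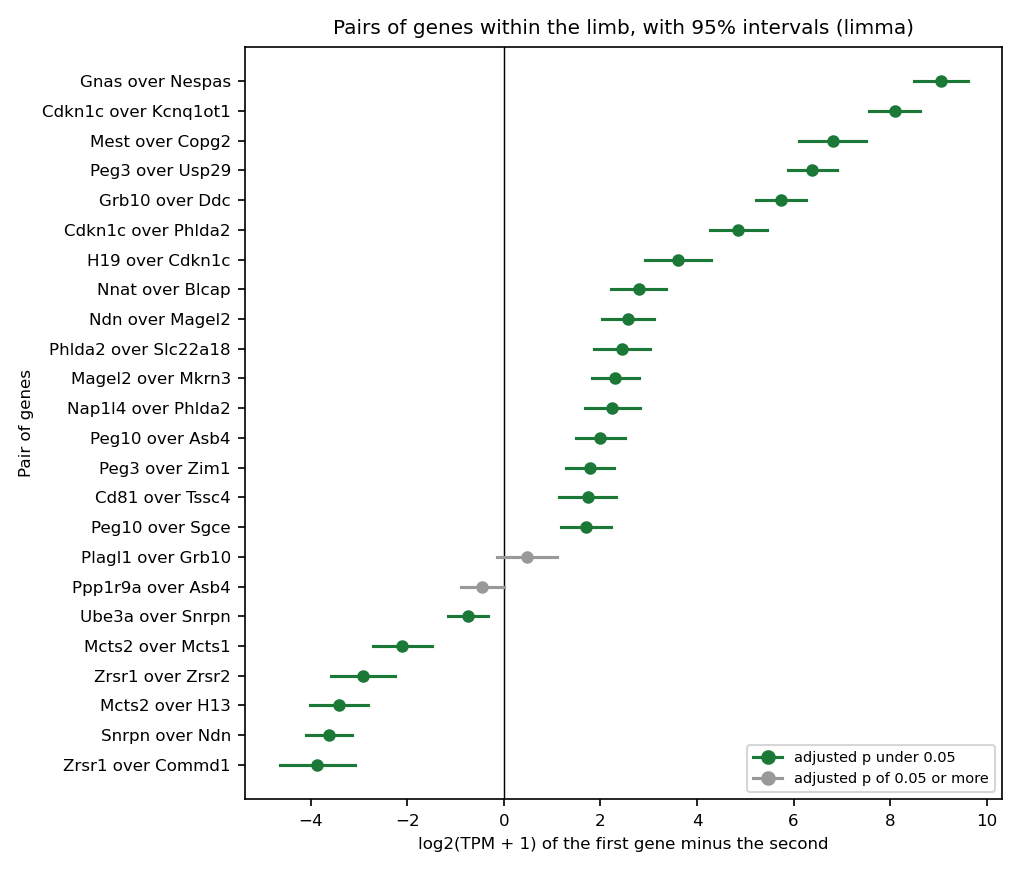
Difference in log2(TPM + 1) between the first and second gene of 24 pairs, with 95% intervals from limma; green pairs had an adjusted p under 0.05. The differences run from -3.86 for Zrsr1 over Commd1 to 9.05 for Gnas over Nespas, and 2 pairs shown in grey did not pass.

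Distal chromosome 7 holds H19 and the Kcnq1 domain, with 9 of the 36 genes. H19 (ENSMUSG00000000031.11, chromosome 7, 142575529 to 142578143) makes a maternally expressed noncoding RNA that shares its control region with Igf2. It had 8132 and 8910 TPM in replicates 1 and 2 and held rank 4 among all gene rows, with a mean of 8521 ± 550 TPM (SD, n = 2). In the same order it took 1.08% and 0.89% of the counts in mouse gene rows. H19 stood 12.1-fold above Cdkn1c (log2 difference 3.60 ± 0.27 SE, limma adjusted p = 7.19e-05). Its call was lost when no filter on low values was used (adjusted p = 0.288, limma).

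Cdkn1c (ENSMUSG00000037664.8, chromosome 7, 143458339 to 143461050) encodes p57, a cyclin-dependent kinase inhibitor that takes cells out of the cycle, and is expressed from the maternal copy. It was the highest of the members in the Kcnq1 domain, at 710 and 692 TPM in replicates 1 and 2. Phlda2, which restrains growth of the placenta, had 19.3 and 28.1 TPM, and Slc22a18, a membrane transporter gene, had 2.73 and 4.32 TPM. Both are neighbours of Cdkn1c. Cdkn1c exceeded Phlda2 by 28.9-fold (log2 difference 4.85 ± 0.23 SE, limma adjusted p = 9.86e-06), and Phlda2 exceeded Slc22a18 by 5.45-fold (log2 difference 2.45 ± 0.23 SE, limma adjusted p = 0.00013). All 3 are known for expression from the maternal copy.

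Kcnq1ot1 is the long antisense RNA made from the paternal copy that silences neighbouring genes on that chromosome. It had 1.74 and 1.41 TPM in replicates 1 and 2 but 10978 and 8302 counts. Its row in the tables is 84395 nucleotides long, so many reads give a low level per length: it ranked 35th of the 36 genes in TPM and 16th in CPM, the count scaled by library size alone. Cdkn1c over Kcnq1ot1 gave a log2 difference of 8.09 (SE 0.21, adjusted p = 1.12e-06, limma) in TPM and of 3.15 in log2(CPM + 1). Kcnq1, the gene it runs through on the opposite strand, had 1.40 and 2.21 TPM.

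The outer genes of the domain, known for imprinting mainly in the placenta, split into abundant and scarce. Cd81, a tetraspanin of the cell surface, had 379.5 and 432.5 TPM in replicates 1 and 2, and Tssc4, which acts in assembly of the spliceosome, had 104.2 and 140.8 TPM. The histone chaperone gene Nap1l4 had 127.0 and 102.2 TPM. Ascl2, a transcription factor needed for trophoblast, had 1.63 and 2.23 TPM from 173 and 215 counts. The trophoblast markers Plac1, Prl3b1, Tpbpa and Hand1 averaged 12.8, 6.33, 2.98 and 2.00 TPM in the same libraries, and the other 6 were under 1 TPM in both. Whether RNA of such cells had a part in the Ascl2 and Phlda2 levels was not tested.

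At the Peg3 locus on proximal chromosome 7, Peg3 and Usp29 start head to head and Zim1 lies beyond Peg3. RefSeq places the Peg3 and Usp29 starts so close that their promoter windows, from 250 bases before to 50 after a start, overlap by 263 bases. The stretch between the starts is shown because both genes are read outward from it; it is chr7:6730420-6730582 on the plus strand of GRCm38.p6 (mm10), as all sequences here from the RefSeq promoter table. Capitals mark CCAAT, the core bound by the factor NF-Y in many promoters, which occurs here 2 times and in 37.4% of all 32817 promoter windows on either strand.
Peg3 to Usp29: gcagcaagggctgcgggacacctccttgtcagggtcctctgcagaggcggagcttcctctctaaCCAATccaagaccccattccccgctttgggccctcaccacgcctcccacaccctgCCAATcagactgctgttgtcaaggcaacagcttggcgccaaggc

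Peg3 (ENSMUSG00000002265.11, chromosome 7, 6703892 to 6730431), a paternally expressed zinc finger gene, had 147.9 and 130.9 TPM in replicates 1 and 2. Usp29, a paternally expressed ubiquitin protease gene, had 0.80 and 0.55 TPM from 145 and 91 counts. Peg3 exceeded Usp29 by 83.9-fold, and its mean TPM was 207 times that of Usp29 (log2 difference 6.39 ± 0.20 SE, limma adjusted p = 2.03e-06). The only Usp29 transcript in the deposited tables starts at 6961160, far downstream of the shared stretch, so that transcript includes no exon near the stretch. Zim1, a zinc finger gene known for maternal expression, had 42.7 and 36.6 TPM. It was below Peg3 in both libraries (log2 difference of Peg3 over Zim1 1.79 ± 0.20 SE, limma adjusted p = 0.00026).

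The Peg10 cluster on proximal chromosome 6 showed 4 genes at moderate levels. Peg10, a paternally expressed gene derived from a retrotransposon and needed for the placenta, and Sgce, the paternally expressed epsilon-sarcoglycan gene of the muscle membrane complex, have annotated starts 99 bases apart on opposite strands. Peg10 had 141.9 and 172.1 TPM in replicates 1 and 2 and Sgce 50.5 and 44.2 TPM. Peg10 was 3.26-fold higher (log2 difference 1.70 ± 0.21 SE, limma adjusted p = 0.000352), and the genes moved in opposite directions between the libraries.

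Ppp1r9a and Asb4 are the genes of this cluster counted in the maternal class. Ppp1r9a, which encodes the actin-binding protein neurabin, had 28.1 and 27.7 TPM in replicates 1 and 2. Asb4, a ubiquitin ligase adaptor, had 36.5 and 40.5 TPM. The pair did not pass (log2 difference of Ppp1r9a over Asb4 -0.45 ± 0.18 SE, limma adjusted p = 0.0514). In CPM the order turned round (log2 difference 0.99, adjusted p = 0.000227, limma), where the longer Ppp1r9a transcripts count for more. With no filter on low values, or with a filter at 10 TPM, the TPM difference passed (adjusted p = 0.0369 and 0.0393, limma).

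**Figure D3:**
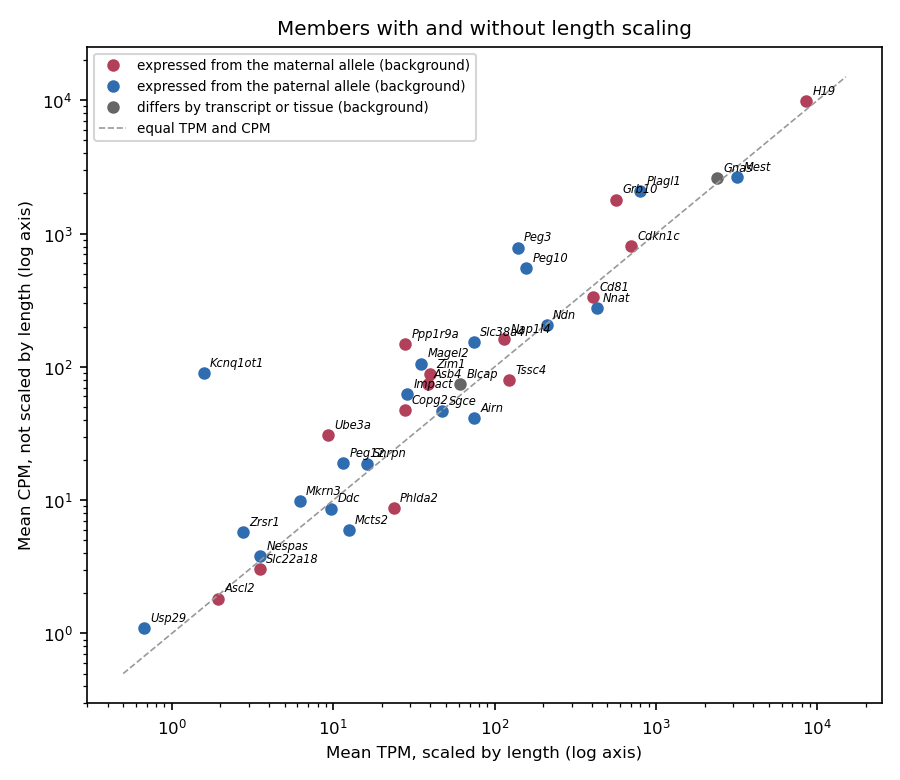
Mean CPM (vertical) against mean TPM (horizontal) of the 36 genes, both on log axes, with a dashed line of equality. Kcnq1ot1 lies farthest above the line, at 1.58 TPM and 90.0 CPM, and Peg3, Peg10 and Ppp1r9a also lie above it.

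Mest on chromosome 6, a paternally expressed gene of the alpha/beta hydrolase family that marks mesoderm, was the second highest member. Its germline-methylated promoter is shown because it begins the most abundant full-length form; the 250 bases before the start are chr6:30737800-30738049 on the plus strand of GRCm38.p6. Capitals mark TGCCGC on either strand, the letters known to be bound by ZFP57 when methylated. The hexamer occurs 2 times here, and in 11.6% of all promoter windows at least once.
Mest: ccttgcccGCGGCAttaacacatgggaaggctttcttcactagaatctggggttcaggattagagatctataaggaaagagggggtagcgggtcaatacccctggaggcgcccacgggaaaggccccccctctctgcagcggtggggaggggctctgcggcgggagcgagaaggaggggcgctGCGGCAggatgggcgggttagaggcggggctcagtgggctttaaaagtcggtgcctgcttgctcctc

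Mest had 3507 and 2844 TPM in replicates 1 and 2, from 284318 and 280562 counts. Copg2, a coatomer gene on the opposite strand whose annotated span overlaps Mest by 912 bases, had 34.4 and 21.4 TPM. Mest exceeded Copg2 by 112-fold (log2 difference 6.81 ± 0.28 SE, limma adjusted p = 4.75e-06). The tables do not state how strand was used in counting, so a small exchange of reads in the shared bases cannot be set apart.

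On chromosome 10, Plagl1 (ENSMUSG00000019817.14, 13060504 to 13131694), a paternally expressed zinc finger regulator of other imprinted genes, had 700 and 893 TPM in replicates 1 and 2. Grb10 on chromosome 11 (ENSMUSG00000020176.13, 11930508 to 12038683), an adaptor that dampens insulin and growth factor receptors and is expressed from the maternal copy outside neurons, had 536 and 600 TPM. Plagl1 over Grb10 did not pass: the log2 difference was 0.48 with a 95% interval of -0.15 to 1.11 (limma adjusted p = 0.11). Ddc, the aromatic amino acid decarboxylase gene next to Grb10, had 10.5 and 8.88 TPM. Grb10 stood 53.3-fold above it (log2 difference 5.74 ± 0.21 SE, limma adjusted p = 3.17e-06).

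The Snrpn domain of chromosome 7, whose human counterpart is lost in Prader-Willi and Angelman syndromes, spanned from 6 to 210 TPM. Ndn, the necdin gene of the MAGE family, had 216.4 and 203.9 TPM in replicates 1 and 2. Its relative Magel2 had 29.5 and 40.6 TPM, and the ring finger gene Mkrn3, a brake on puberty, had 6.12 and 6.27 TPM. Both steps passed the test: Ndn over Magel2 had a log2 difference of 2.57 (SE 0.22, adjusted p = 8.66e-05, limma) and Magel2 over Mkrn3 of 2.31 (SE 0.19, adjusted p = 8.66e-05, limma).

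Peg12, related to a regulator of Wnt signalling, had 10.2 and 12.8 TPM in replicates 1 and 2. Snrpn, a paternally expressed component of the splicing machinery, had 15.6 and 16.7 TPM and was the only member with counts over 0.005 from a whole number, a sign of reads shared with other genes. It was below Ndn (log2 difference of Snrpn over Ndn -3.62 ± 0.19 SE, limma adjusted p = 1.32e-05). Ube3a, a ubiquitin ligase imprinted in neurons, had 9.81 and 8.69 TPM and lay below Snrpn in TPM (log2 difference -0.74 ± 0.17 SE, limma adjusted p = 0.00613). In CPM it lay above (log2 difference 0.67, adjusted p = 0.00445, limma).

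Nnat and Blcap share a locus on chromosome 2, where Nnat lies inside Blcap on the opposite strand. Nnat, the neuronatin gene of a small endoplasmic reticulum protein best known from brain and fat, had 375.8 and 481.3 TPM in replicates 1 and 2. Blcap, whose imprinting is known from brain, had 54.4 and 67.8 TPM. Nnat exceeded Blcap by 6.91-fold (log2 difference 2.79 ± 0.23 SE, limma adjusted p = 8.66e-05). Neuron markers were far lower: Gap43 averaged 31.7, Tubb3 9.40, Stmn2 6.35 and Isl1 3.33 TPM, and Elavl4, Syt1, Slc17a6 and Rbfox3 were under 1 TPM in both libraries. Whether RNA of neurons had a part in the Nnat and Ndn levels was not tested.

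Gnas on chromosome 2 (ENSMUSG00000027523.15, 174284320 to 174346744) encodes the stimulatory G protein subunit of hormone receptors and, from other starts, the NESP55 and XL proteins. It had 2391 and 2397 TPM in replicates 1 and 2, the third highest of the 36 genes. Nespas, the paternally expressed RNA on the opposite strand, had 3.65 and 3.41 TPM from 454 and 358 counts. Gnas over Nespas gave the largest difference of the 24 pairs (log2 difference 9.05 ± 0.22 SE, limma adjusted p = 1.12e-06).

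Genes with several promoters were next read by transcript start. Starts within 1000 bases of each other were joined to a group, with positions from GENCODE M21. In Gnas, start groups lie in the known order of the locus: Nesp, used from the maternal copy, then XL and exon 1A, used from the paternal copy, then the start of the G protein subunit. The first and the last of these are shown because they carried most of the gene's RNA. The Nesp stretch is chr2:174284070-174284319 and the G protein stretch chr2:174329756-174330005, both on the plus strand of GRCm38.p6. Capitals mark ATGGCG on either strand, the core of the YY1 site, which 8.92% of all promoter windows hold.
Gnas, Nesp start: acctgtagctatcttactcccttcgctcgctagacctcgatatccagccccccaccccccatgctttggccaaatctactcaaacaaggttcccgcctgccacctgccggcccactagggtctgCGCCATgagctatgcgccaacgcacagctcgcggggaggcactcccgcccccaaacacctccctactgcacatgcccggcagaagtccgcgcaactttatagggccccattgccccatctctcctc
Gnas, G protein start: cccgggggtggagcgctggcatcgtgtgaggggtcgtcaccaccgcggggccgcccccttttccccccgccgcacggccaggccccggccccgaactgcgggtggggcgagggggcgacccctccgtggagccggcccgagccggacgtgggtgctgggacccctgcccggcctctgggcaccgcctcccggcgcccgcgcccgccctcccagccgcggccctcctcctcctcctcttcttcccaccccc

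The G protein start carried 81.8% ± 4.0 of the gene's TPM (SD, n = 2), or 2022 and 1892 TPM in replicates 1 and 2. The Nesp start carried 221 and 312 TPM, the XL start 29.5 and 34.3 TPM, and the exon 1A start 66.3 and 98.9 TPM. In both libraries the order was the same, with the start of the G protein subunit first and the Nesp start second. The G protein stretch holds 29 CpG dinucleotides in its 250 bases and the Nesp stretch 14.

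Grb10 had 8 start groups, with a main and a minor start that carried most of its TPM. The start group led by Grb10-209, just downstream of these, carried 2.74 and 3.65 TPM in replicates 1 and 2. Which parental copy each start uses was not measured. The upstream start of transcript Grb10-201 carried 460 and 447 TPM in replicates 1 and 2, and the start of Grb10-203, farther downstream, carried 54.9 and 128.9 TPM. The shares of the gene were 80.2% ± 8.0 and 15.8% ± 8.0 (SD, n = 2), and the minor share was 10.2% in replicate 1 and 21.5% in replicate 2. The bases before these starts are shown because they differ sharply in CpG content, with 40 CpG in the upstream and 8 in the downstream stretch. They are chr11:12037421-12037670 and chr11:12027972-12028221, read on the minus strand of GRCm38.p6, and these 250 bases hold none of the 3 motifs named above. The 50 bases after the starts, not printed but part of the 300-base windows, bring the upstream window to 1 TGCCGC and the downstream window to 1 ATGGCG.
Grb10, upstream start: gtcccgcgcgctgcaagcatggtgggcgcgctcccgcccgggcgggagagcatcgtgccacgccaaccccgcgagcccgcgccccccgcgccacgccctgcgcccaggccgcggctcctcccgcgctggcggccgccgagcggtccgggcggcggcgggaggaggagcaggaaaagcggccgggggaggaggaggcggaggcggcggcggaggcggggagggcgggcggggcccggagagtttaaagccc
Grb10, downstream start: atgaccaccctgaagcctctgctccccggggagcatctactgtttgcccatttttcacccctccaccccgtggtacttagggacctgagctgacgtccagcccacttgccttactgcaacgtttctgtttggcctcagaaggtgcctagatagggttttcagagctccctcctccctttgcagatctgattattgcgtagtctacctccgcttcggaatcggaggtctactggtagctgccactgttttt

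Other genes leaned on 1 start. In Plagl1 22 transcripts from 1 start group carried 93.9% ± 0.48 of the TPM, in Snrpn the downstream start carried 99.5% ± 0.42 and the far upstream start the rest, and in Peg3 the start at the shared stretch carried 99.6% ± 0.25 (SD, n = 2). Slc38a4, a paternally expressed amino acid transporter gene of chromosome 15, divided its RNA: the upstream start carried 50.02 and 48.17 TPM in replicates 1 and 2, and the start 35634 bases downstream 16.4 and 34.5 TPM. Asb4 drew 89.4% ± 2.8 of its TPM from the upstream start (SD, n = 2).

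**Figure D4:**
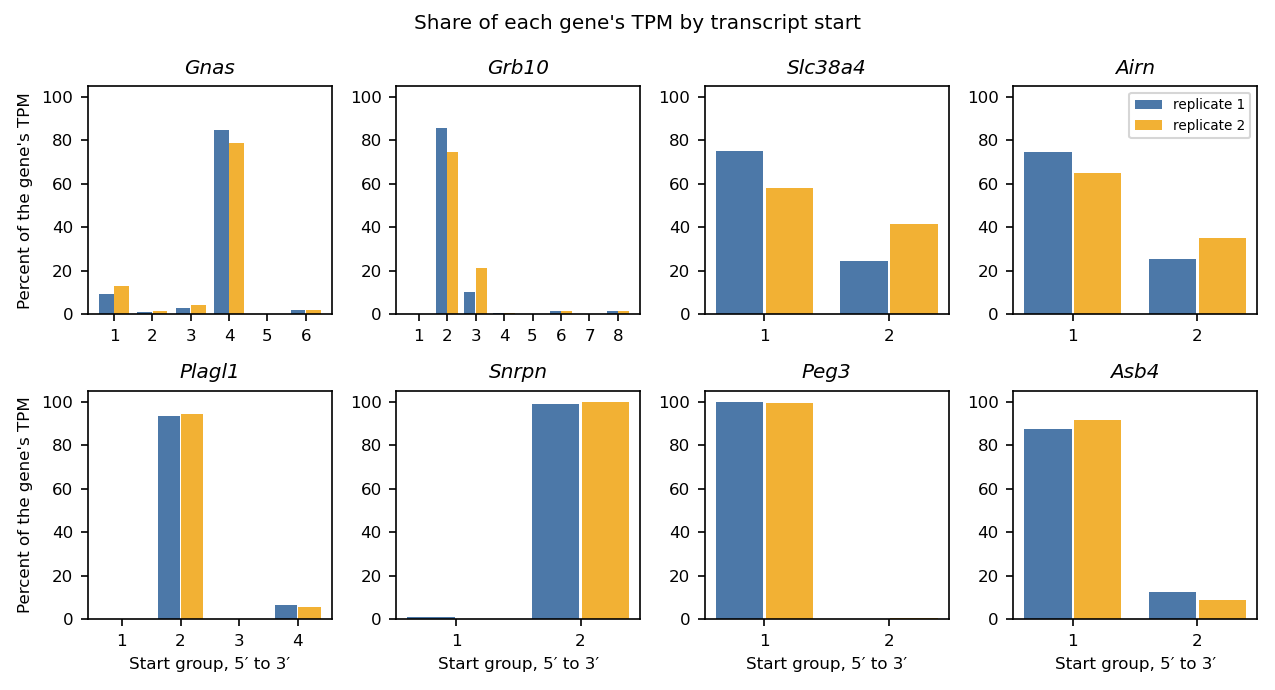
Percent of each gene's TPM that comes from each group of transcript starts, numbered from 5′ to 3′, in replicate 1 (blue) and replicate 2 (yellow). The main start is the same in both libraries for all 8 genes shown. The largest minor share is higher in replicate 2 for Grb10, Slc38a4, Airn, Gnas and Peg3. It is lower in replicate 2 for Plagl1, Snrpn and Asb4.

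Some genes had transcript shares that differed widely between the libraries. For H19 the full-length H19-202 took 88.6% of the gene's TPM in replicate 1 and 44.5% in replicate 2, while H19-203 took 6.29% and 31.7% and H19-205 4.13% and 22.9%. For Mest the coding Mest-211 took 38.7% and 48.8%, the 417-base Mest-204 took 52.1% and 7.75%, and an 836-base transcript with no match in GENCODE M21, and so with no start given here, took 6.72% and 39.0%. For Cdkn1c the share of Cdkn1c-201 was 64.8% and 86.4%, with Cdkn1c-202 taking the rest, and for Ascl2 all reads went to Ascl2-201 in replicate 1 and to Ascl2-202 in replicate 2. In other genes the leading share was closer between the libraries: Peg10-203 took 52.3% and 48.9% of Peg10, Sgce-205 78.1% and 84.9% of Sgce, and Nnat-202 62.3% and 69.1% of Nnat in replicates 1 and 2. These shares come from reads that several overlapping transcripts could explain, and the read assignment was not tested.

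These shares also set the length by which a gene's reads are divided. The effective length of H19 was 1959 bases in replicate 1 and 1479 in replicate 2, and that of Mest 1081 and 1413. With 1 fixed length per gene, a setting chosen after seeing the data, H19 had 8990 and 7950 TPM and Mest 2948 and 3342 TPM in replicates 1 and 2, so the order of the libraries turned round for both. For 6 of the 36 genes the effective length differed by more than 10% between the libraries.

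Of the single genes elsewhere, Impact, a paternally expressed regulator of translation control on chromosome 18, had 29.4 and 27.9 TPM in replicates 1 and 2. Airn, the paternally expressed antisense RNA that silences Igf2r, had 79.3 and 70.7 TPM, and Igf2r itself 80.9 and 81.4 TPM. Airn is known mainly as a long unspliced RNA, whereas its row in the tables has spliced transcripts with an effective length of 784 and 846 bases, so its TPM is per length of those short forms. Of the Airn TPM 69.7% ± 6.7 came from the upstream start group (SD, n = 2).

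Zrsr1 and Mcts2 are paternally expressed retrogenes that lie in introns of other genes. Zrsr1, related to the splicing factor gene Zrsr2, had 3.56 and 1.95 TPM in replicates 1 and 2, against 74.5 and 36.8 TPM for its host Commd1 and 34.6 and 20.8 TPM for Zrsr2. It was below Commd1 (log2 difference -3.86 ± 0.31 SE, limma adjusted p = 8.55e-05) and below Zrsr2 (log2 difference -2.92 ± 0.27 SE, limma adjusted p = 0.000117). Commd1 counts were not whole, so part of its reads is shared with other genes.

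Mcts2, a copy of the translation factor gene Mcts1, had 15.4 and 9.56 TPM in replicates 1 and 2, against 123 and 159 TPM for its host H13 and 65.9 and 47.1 TPM for Mcts1. It was below H13 (log2 difference -3.42 ± 0.24 SE, limma adjusted p = 5.42e-05) and below Mcts1 (log2 difference -2.11 ± 0.24 SE, limma adjusted p = 0.000291). Between the transcripts of each retrogene and its source in GENCODE M21 the longest identical run was 29 bases for Mcts2 and Mcts1 and 37 bases for Zrsr1 and Zrsr2. Both are shorter than the reads of 101 bases. Mcts2 lies inside H13 on the same strand, so reads of unspliced H13 RNA in the shared 912 bases cannot be set apart.

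To see how far the libraries differ, each gene was given an exact two-sided conditional binomial test of its counts; it compares libraries, not conditions. Of the 36 members 32 had an adjusted p under 0.05 (Benjamini-Hochberg over 20396 genes), 16 higher and 16 lower in replicate 1. Among all genes tested 60.5% were called (30.2% higher and 30.3% lower in replicate 1), and of genes averaging 10 TPM or more 82.9%, beside 24 of the 27 members at that level. For members averaging 10 TPM or more, the share called is near that of all genes at that level. The 32 of 36 is above the 60.5% of all genes tested, a background that was not matched for level. With the spread among all genes taken into account, edgeR's exact test at a common dispersion called 0 of the 36 and 1.04% of all genes. In that test 1 member, Zrsr1, had an unadjusted p under 0.05. The dispersion was estimated from the same 2 libraries, so their difference sets the spread it is tested against and few calls can follow.

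The members' ratios between the libraries had a median size close to that of other genes. The median absolute log2 ratio of normalised counts was 0.21 for the 27 members averaging 10 TPM or more and 0.20 for all such genes. Of these members 1, Mcts2, lay beyond 0.5 on the log2 scale, as did 11.1% of all such genes. The retrogenes had the largest count ratios of replicate 1 over replicate 2, 1.83-fold for Zrsr1 (824 and 415 counts) and 1.66-fold for Mcts2 (827 and 461 counts). At the other end Slc22a18 had 265 counts in replicate 1 and 382 in replicate 2, a log2 ratio of -0.64. The log2 ratios nearest 0 were 0.01 for Ppp1r9a and -0.03 for both Gnas and Mkrn3.

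**Figure D5:**
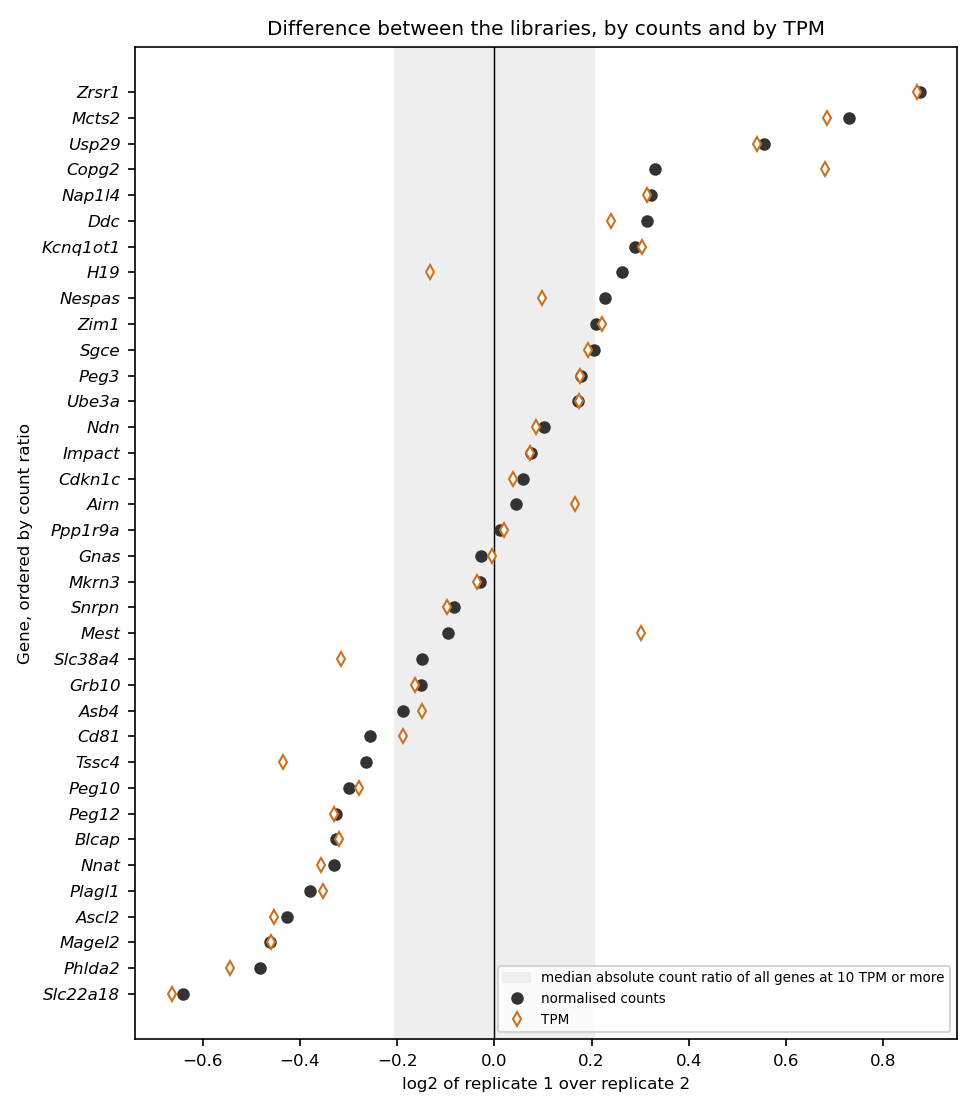
Log2 ratio of replicate 1 over replicate 2 for each member, by normalised counts (black) and by TPM (orange diamonds); the grey band is the median absolute count ratio of all genes averaging 10 TPM or more. Zrsr1 and Mcts2 lie highest, Slc22a18 lies lowest, and the count and TPM ratios of H19 and Mest have opposite signs.

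Promoter windows of 29 members were found in the RefSeq table, 42 windows in all, some of them overlapping. H19, Cdkn1c, Nap1l4, Peg10, Sgce, Nespas and Impact had none. Member windows held a median of 14 CpG dinucleotides, beside 7 in all 32817 windows. The 14 windows of genes known for maternal expression had a median of 23 CpG and the 23 of genes known for paternal expression 10. Genes with several windows, such as Slc38a4 with 5 CpG in each, count more than once. These medians are therefore per window, not per gene, and leave out the genes without a window. TGCCGC occurred in 9 of the 42 member windows, or 21.4%, beside 11.6% of all windows. ATGGCG occurred in 5, or 11.9%, beside 8.92%, and CCAAT in 15, or 35.7%, beside 37.4%. Both hexamers hold a CpG, in which the member windows are richer, and base content was not matched in these comparisons. The 9 windows with TGCCGC include both of the overlapping Mest windows. A match of letters is a description only and shows no binding.

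Of 38 other imprinted genes listed, some of them at loci with no member, 34 had a row and 26 were detected, beside 33.8% of all gene rows and 62.8% of protein-coding genes. Their median was 6.31 TPM. Igf2 led at 3964 ± 639 TPM, followed by H13 at 141 ± 25.0, Igf2r at 81.1 ± 0.354 and Dhcr7 at 73.8 ± 7.83 TPM (SD, n = 2). Of 12 genes that keep or read imprints 10 were detected. Trim28, the corepressor recruited by ZFP57, had 585 ± 112 TPM, Zfp57 itself 119 ± 6.73, Uhrf1 91.4 ± 5.34 and the maintenance methyltransferase gene Dnmt1 85.5 ± 2.16 TPM (SD, n = 2). Dppa3, which protects methylation in the early embryo, had 3 and 0 counts, and the stem cell gene Zfp42 had 5 and 3 counts in replicates 1 and 2.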

How the data were processed

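The authors deposited gene and transcript tables for both libraries. A text file deposited beside them names mm10 and GENCODE M4; the aligner and counting program are not given in the sources used here. These deposited tables hold, per the file headers, expected counts, TPM, posterior mean TPM, effective lengths and, for transcripts, the share in the gene in percent. Names and positions came from GENCODE M21 (GRCm38), joined by stable identifier; 884 of 43346 gene rows had no match and kept their identifier. Of the members' 190 transcripts 186 had a match, 149 with the same length. The 26345 rows that are no mouse gene (spike-ins, phiX and transfer RNAs), with 3.73% and 4.30% of counts in replicates 1 and 2, were left out.

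Counts were rounded for tests (R 4.3.3). The libraries were compared by an exact binomial test with TMM-scaled sizes (edgeR 4.0.16; factors 1.01 and 0.992), a minimum of 10 counts in total and a prior count of 0.5 in ratios. The chi-square between the libraries was 127 per degree of freedom, more than sampling noise gives, and they were kept as separate samples; this does not tell preparation from biology. Pairs were tested by an intercept-only limma 3.58.1 fit to log2(TPM + 1) (eBayes, trended prior) on 15056 genes that averaged 1 TPM or more or belonged to a pair, using the moderated variances of both genes. Size factors of DESeq2 1.42.0 served as an alternative. The fits were tested on simulated data, with sampling noise alone in the counts and an equal, independent spread for all genes in the pairs. The real libraries differ by more than sampling noise, so those runs do not cover such spread. The members, lists, pairs and tests were chosen with earlier results of these data known. Named are all members, both genes of each pair, the 4 highest genes of a list and those under 1 TPM where a list has 5 or fewer. For a fixed list of genes, transcripts with a mean share of 10% or more could be named; those printed, Ascl2 and the genes shown by start were picked after values were seen. Of the liver list, Afp, Apoa1, Ttr and Alb averaged 21.6, 8.50, 5.36 and 3.40 TPM and Fgb 0.25 TPM.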

Additional observations from a re-analysis of the deposited data

How the results depend on the processing

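Under the alternatives run, 35 members were detected with posterior mean TPM, with CPM of at least 1, with 1 fixed length per gene, and without replicate 1 or replicate 2, and 30 passed at 5 TPM. Of the 24 pairs, 22 passed with a pseudocount of 0.1, with no filter on low values, with posterior mean TPM and with 1 fixed length per gene, and 23 passed with a filter at 10 TPM and in CPM. The sign turned in CPM for Ppp1r9a over Asb4 (0.99) and Ube3a over Snrpn (0.67), since a difference in CPM also holds the difference in transcript length. No pair changed sign without replicate 1 or replicate 2, where no test is possible. The number of members that differ between the libraries was 32 with DESeq2 size factors and with library size alone, and 31 with no filter on low counts. It was 0 with edgeR's exact test at the common dispersion of 0.0373. That dispersion was estimated from the same 2 libraries and also counts spread beyond sampling. No paired analysis was possible because all samples form 1 group. A count of 0 allows up to 3 counts, 0.0272 and 0.0290 CPM in replicates 1 and 2, for counting error only; Dppa3 had 0 counts in replicate 2.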
